A study of Mus musculus with 3 samples.

Results

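Cytosolic ribosomal protein genes were measured in 3 WAP-SVT/t mouse mammary tumours, on 1 array each. Members were chosen by name alone. They were the probe sets whose annotation gave exactly 1 gene, with a symbol that starts Rpl or Rps and goes on with a digit, or Rplp0, Rplp1, Rplp2 or Rpsa. S6 kinase genes and pseudogene symbols were left out. This gave 100 probe sets for 48 genes, among 12393 genes named in this way on the array. By symbol, 22 genes encode core proteins of the large subunit and 20 of the small subunit, and 6 are paralogues of a ribosomal protein (Rpl3l, Rpl7l1, Rpl22l1, Rpl39l, Rps4l and Rps27l). A further 102 probe sets named a ribosomal protein gene together with at least 1 other gene, mostly a pseudogene or predicted copy. They are not members and are set beside them below.

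The tumours came from female NMRI mice that make the SV40 T/t antigens in mammary gland epithelium, under a promoter taken from Wap, a gene for a milk protein. The design text names 1 transgenic line, line 8. All 3 tumours form 1 group, no normal gland was analysed here, and ages were not given. The titles begin with 585 for tumours 1 and 2 and with 597 for tumour 3. The labels do not say what these numbers mean or whether the tumours came from separate mice. With 1 array per tumour and no second group, no test between conditions exists, so every difference below describes these 3 arrays and may hold array and preparation effects. In a tumour piece, a lower level can mean fewer cells of a type or less RNA per cell, and these cannot be told apart.

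Ribosomal proteins form, with ribosomal RNA, the small subunit that reads the messenger RNA and the large subunit that joins amino acids. Each protein is needed in about equal number per ribosome, so their mRNAs are abundant in growing cells, and most begin with a run of pyrimidines (C and T) at the cap, through which the mTOR pathway controls their translation. Their coding sequences have left many processed pseudogenes in the mouse genome, and a probe set for such a gene can also bind transcripts of those copies. Signal of near-identical copies therefore cannot be separated here.

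The choice of members did not use the sequence around the start of transcription. The RefSeq promoter table (GRCm38.p6) held 50 starts for 42 of the 48 genes. A run of at least 6 consecutive C or T bases lay within 20 bases on either side of 31 of the 50 starts (62.0%), against 37.5% of the 32851 starts of all genes in that table. Runs wholly before the start, as in Rpl37, were counted too, although they lie outside the mRNA. The motif CCGGAAG or its reverse complement CTTCCGG, the core bound by ETS-family factors, was found in 21 of the 50 windows (42.0%) from 250 bases before to 50 bases after the start, against 8.86% of all windows. The letters TATAA, searched on the coding strand, were in the last 50 bases before the start in 5 member windows (10.0%) and in 4.93% of all windows. These are matches of letters and not measured sites. The starts of the 5 genes that differed most between tumours and of 5 of the 6 that differed least are shown here, from 15 bases before the start to 15 bases from it, 5′ to 3′, with the longest run of C and T in capitals.
Rpl22, start at chr4:152324421-152324450, + strand: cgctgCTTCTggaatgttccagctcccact
Rpl22, start at chr4:152325711-152325740, + strand: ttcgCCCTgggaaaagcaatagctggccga
Rpl22l1, start at chr3:28805493-28805522, + strand: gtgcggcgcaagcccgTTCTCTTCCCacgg
Rpl14, start at chr9:120571502-120571531, + strand: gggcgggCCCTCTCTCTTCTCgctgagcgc
Rpl37, start at chr15:5116598-5116627, + strand: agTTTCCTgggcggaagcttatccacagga
Rpl27a, start at chr7:109519180-109519209, + strand: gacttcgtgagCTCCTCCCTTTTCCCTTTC
Rpl10a, start at chr17:28328456-28328485, + strand: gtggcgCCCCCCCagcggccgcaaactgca
Rpl10a, start at chr17:28328550-28328579, + strand: gCTCTatttgagcgcatgcgcaaagcgctc
Rps2, start at chr17:24720048-24720077, + strand: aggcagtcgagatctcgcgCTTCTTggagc
Rps3a1, start at chr3:86142654-86142683, - strand: TTaaagccggaagggcgaaagagcaagggt
Rps28, start at chr17:33824548-33824577, - strand: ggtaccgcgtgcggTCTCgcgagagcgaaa
Rpl7a, start at chr2:26910792-26910821, + strand: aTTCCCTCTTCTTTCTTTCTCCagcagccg
Among genes with a wide range, long runs occurred in Rpl14 (14 bases) and Rpl27a (20 bases, of which 19 are shown). Rpl7a, with a narrow range, had a run of 21. The 2 annotated starts of Rpl22 had runs of 5 and 4 bases, and the start of its paralogue Rpl22l1 had 1 of 10.

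The highest intensity was 11344, 11659 and 10789 in tumours 1, 2 and 3. The word level stands for log2(intensity + 50) of quantile-normalized arrays, values that a gene "read" are deposited intensities, and each gene is taken from its brightest probe set. A gene passed the low-signal filter when its mean level reached the median of all probe sets (7.40, an intensity of 119). The markers of luminal epithelium all passed (6 of 6), with summed intensities of 19689 to 20992, and Krt8, Krt18 and Epcam were the brightest. They did not share 1 order of tumours. Krt19 read 1590, 803 and 454, Cdh1 read 1313, 1403 and 2793, and Elf3 was dimmer at 566, 598 and 593. Of 5 basal markers only Acta2 passed, and all 5 were highest in tumour 1, where Krt14 read 358 against 59 and 50 in tumours 2 and 3. The 3 T cell markers were dim (intensities of 2 to 44). The 6 macrophage markers were all lowest in tumour 3 (summed intensities of 14930, 12809 and 7708), and the 2 adipocyte markers on the array were highest there (490, 398 and 3515). Control probe sets for small-subunit ribosomal RNA also set tumour 3 apart: the middle part read 9856, 9311 and 400, and the 3′ part 2697, 1833 and 7147. The ratio of 3′ to 5′ control signal was 0.809 to 1.21 for Gapdh and 1.04 to 1.26 for β-actin.

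Ribosomal protein genes were among the brightest on the array, and most differed little between tumours. Of the 48 genes 44 passed the filter, with a median level of 12.69 against 8.96 for all 6951 genes that passed. Of the 100 brightest probe sets on the array, 25 were members and 34 more named a ribosomal protein gene with others. Highest and lowest tumour differed by a median of 0.35 (log2) over the 44 genes, 1.27-fold, against 0.66 over all genes. At least 2-fold differences were found in 5 of the 44 genes (11.4%), where the share over all genes was 24.8%. That count was 4 without tumour 1, 2 without tumour 2 and 1 without tumour 3. At least 1.5-fold differences were found in 10 of 44 (22.7%), against 57.1% of all genes. Brightness goes with a small range on this array. Among the 93 other genes at or above the lower quartile of the members' level (12.11), the median range was 0.45 and 8.60% differed at least 2-fold. The 33 members in that span had a median range of 0.30, and 0 of them differed at least 2-fold. All 5 members that differed at least 2-fold lay below that cut, among the minority of the 44 outside the span. The low 2-fold share (against 24.8% of all genes) thus holds for the bright members and not for the dimmer ones. Within the span the members were still brighter, with a median level of 12.79 against 12.35 for the 93 other genes.

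**Figure D1:**
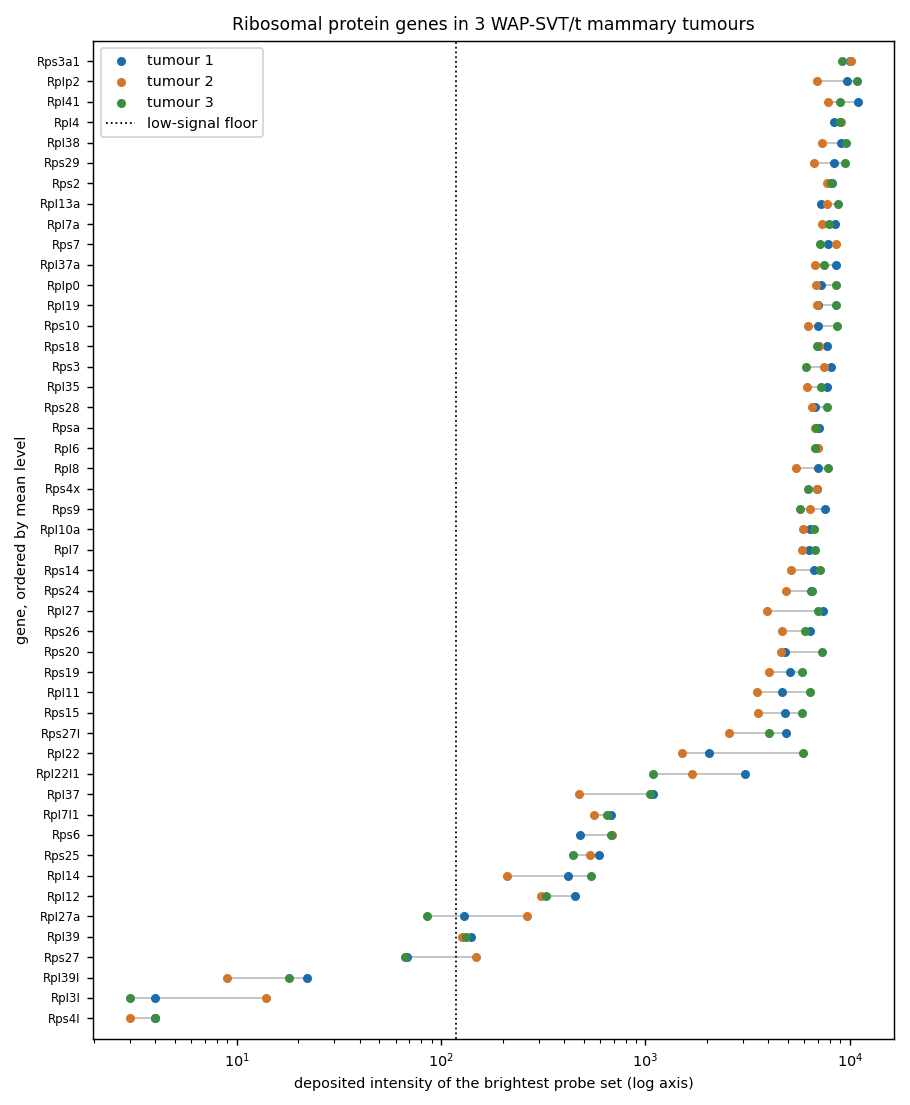
Deposited intensity of the brightest probe set of each of the 48 genes (log axis), 1 point per tumour, ordered by mean level. Most genes lie at the bright end with their 3 points close together, while Rpl22, Rpl22l1, Rpl14, Rpl37 and Rpl27a spread at least 2-fold, and 4 genes lie below the low-signal floor (dotted line).

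Of the 11 genes near saturation (at least 75% of the highest value of an array in any tumour), 0 differed at least 2-fold, and their median range was 0.28. The 33 other genes past the filter had a median range of 0.36. Rplp2, which encodes an acidic protein of the stalk that recruits elongation factors, read 9703, 6906 and 10789 and was the brightest probe set of the tumour 3 array. A ceiling on such values would narrow their range, and its part in the small differences was not tested.

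Read from the brightest probe set that names 1 gene, 8 of 22 large-subunit genes past the filter, paralogues apart, differed at least 1.5-fold (57.1% of all genes) and 4 at least 2-fold (24.8%). Of 19 small-subunit genes past it, 0 differed at least 1.5-fold. In probe sets naming several genes, some small-subunit genes did reach 1.5-fold. The brightest such sets of Rps13 and Rps15a had ranges of 1.81-fold and 1.61-fold, and that of Rps21 had 1.27-fold. Dimmer sets above the filter naming Rps13 and Rps21 had ranges of up to 2.79-fold and 4.14-fold. For the large subunit, the brightest set naming Rpl36 had a 2.18-fold range. The median range was 0.31 for the large and 0.34 for the small subunit.

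Rpl22, whose protein lies on the outer face of the large subunit and is dispensable for most translation, had the widest range. Its brightest probe set read 2058 in tumour 1, 1503 in tumour 2 and 5871 in tumour 3. Tumour 3 stood above both others, and the level was 11.37 ± 0.94 (SD, n = 3) with a 3.50-fold range. The other probe set of Rpl22 was dim and did not share that order, at 347, 684 and 524. The paralogue Rpl22l1, whose mRNA the Rpl22 protein is known to repress, was lowest in the tumour where Rpl22 was highest. It read 3088, 1683 and 1086 in tumours 1, 2 and 3, with a level of 10.84 ± 0.77 (SD, n = 3) and a 2.88-fold range. Between tumours 1 and 2 both genes were lower in tumour 2. Rpl22l1 had only 1 probe set, and 3 tumours cannot show whether the 2 genes vary together.

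Rpl14, Rpl37 and Rpl27a, the other genes that differed at least 2-fold, were each read from a dim probe set. Rpl14 read 418, 211 and 541, lowest in tumour 2. Rpl37 read 1085, 474 and 1057, also lowest in tumour 2. Rpl27a read 129, 263 and 85, highest in tumour 2, with tumour 3 below the intensity floor. For these genes much brighter probe sets existed that named other genes as well. Rpl14 had 5, all highest in tumour 3 and lowest in tumour 2 like its own set, with ranges from 0.76 (3111, 3045 and 5864) to 1.22 (2050, 1633 and 4203) on the log2 scale against 1.24. The 2 shared sets of Rpl37 above the filter were both lowest in tumour 2 but differed in size. One read 7906, 5562 and 7527, a range of 0.39, and the other 5017, 2764 and 8218, a range of 1.47, against 1.23 for its own set. The shared set of Rpl27a read 7309, 5174 and 7145, with tumour 2 lowest where its own probe set had tumour 2 highest.

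Other large-subunit genes differed less than 2-fold. Rpl27 read 7376, 3956 and 6997, with tumour 2 lowest and a 1.76-fold range. Rpl11, which with Rpl5 binds Mdm2 when ribosome assembly is disturbed, read 4633, 3507 and 6353, a 1.60-fold range. Rpl12, beside the stalk, read 453, 307 and 326 from a dim probe set. Its 2 shared sets read 5607, 5975 and 8715, a range of 0.61 (log2), and 4884, 4965 and 5586, a range of 0.08. In the stalk itself Rplp2 had a 1.54-fold range, whereas Rplp0, the scaffold that carries the stalk dimers, read 7209, 6824 and 8577, a 1.17-fold range. Only the rank of tumour 2 as lowest was common to Rpl27, Rpl11, Rpl12, Rplp2 and Rplp0 in the deposited intensities. After normalization Rplp0 was lowest in tumour 1 (12.81, against 12.83 in tumour 2).

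The steadiest genes of the large subunit were Rpl7, Rpl10a, Rpl7a and Rpl4. Rpl7 read 6286, 5826 and 6768, which became 12.62, 12.62 and 12.64 after normalization. Rpl10a read 6399, 5931 and 6654, with a level of 12.64 ± 0.02 (SD, n = 3). Rpl7a read 8441, 7340 and 7900 and Rpl4 read 8389, 9082 and 8972, with ranges of 1.11-fold and 1.13-fold. The remaining large-subunit genes past the filter, which include Rpl6, Rpl8, Rpl13a, Rpl19, Rpl35, Rpl37a, Rpl38, Rpl39 and Rpl41, ranged from 1.14-fold (Rpl39) to 1.29-fold (Rpl41). Rpl39 is a dim probe set in that group, at 140, 126 and 133, and its shared probe set read 7015, 6169 and 8616. Rpl41, the smallest ribosomal protein, read 10965, 7825 and 8981 and was among the brightest genes of tumour 1.

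In the small subunit, Rps9 had the widest range and Rps2 the narrowest. Rps9 read 7557, 6351 and 5687, highest in tumour 1, with a level of 12.67 ± 0.26 (SD, n = 3) and a 1.43-fold range. Rps3, at the entry of the messenger RNA channel, read 8121, 7444 and 6117, also lowest in tumour 3, with a 1.42-fold range. Rps15 read 4839, 3565 and 5836 and Rps20 read 4809, 4584 and 7275, both highest in tumour 3, with ranges of 1.42-fold and 1.41-fold. Rps9 and Rps3 thus ran opposite to Rps15 and Rps20 in tumour 3. Rps2 read 8214, 7743 and 8091, a 1.06-fold range. Rps3a1 and Rps28 followed, with ranges of 1.08-fold and 1.09-fold, and Rpsa, the laminin receptor homologue, with 1.12-fold.

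Rps19 and Rps14, mutated in or deleted with inherited and acquired anaemias in humans, had ranges of 1.28-fold and 1.20-fold. Rps19 read 5113, 4007 and 5860, and Rps14 read 6709, 5178 and 7126. Tumour 2 had the lowest value of each in these sets. A second set of Rps14 with nearly the same mean level (12.60 against 12.62) read 6706, 6429 and 5538, lowest in tumour 3. Rps6, the substrate of the S6 kinases, was read from a dim probe set at 481, 688 and 680, while its brightest shared probe set read 10311, 10634 and 9303 with a range of 0.14 (log2). Rps25 was likewise dim at 594, 535 and 441, against 5273, 3929 and 5104 for its shared probe set. Rps4x, Rps7, Rps10, Rps18, Rps24, Rps26 and Rps29, the other small-subunit genes past the filter, ranged from 1.19-fold (Rps18) to 1.37-fold (Rps29).

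Of the 6 paralogues 3 passed the filter. Rps27l, a gene induced by p53 whose protein differs little from Rps27, read 4846, 2571 and 4013, lowest in tumour 2, with a level of 11.85 ± 0.45 (SD, n = 3) and a 1.86-fold range. All 3 probe sets of Rps27l were lowest in tumour 2. Rps27 itself was below the filter in its own probe set, at 68, 149 and 67, and read 4637, 3284 and 5296 in a probe set shared with a near-identical gene. Rpl7l1 read 679, 560 and 650, a 1.27-fold range, far dimmer than the probe sets of Rpl7, although probe sets of different genes are not on a common scale. The 3 others were below the filter with Rps27, which makes the 4 members that did not pass. Rpl3l, known from heart and skeletal muscle, read 4, 14 and 3. Rpl39l, known from testis, read 22, 9 and 18, and Rps4l read 4, 3 and 4.

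Tumour 2 was most often the lowest tumour among the members, by small differences. It was lowest for 22 of the 44 genes, where the share over all genes was 27.1%, and tumours 1 and 3 were lowest for 8 (28.5% of all genes) and 14 (44.1%). Tumour 1 was highest for 18 members (30.4% of all genes were highest there), tumour 3 for 17 (30.2%) and tumour 2 for 8 (39.1%). The median deviation of the members from the mean of the tumours was 0.05, -0.08 and 0.03 in tumours 1, 2 and 3, against 0.02, 0.06 and -0.07 over all genes. In tumour 2 the sign was opposite to that of all genes. That deviation was -0.14 with the values as deposited and -0.19 with array medians subtracted, where all genes stood at 0.09 and 0.05. Tumours 2 and 3 were at least 2-fold apart for 4 of the 44 genes (15.9% of all genes), tumours 1 and 3 for 2 (12.9%) and tumours 1 and 2 for 1 (8.26%).

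**Figure D2:**
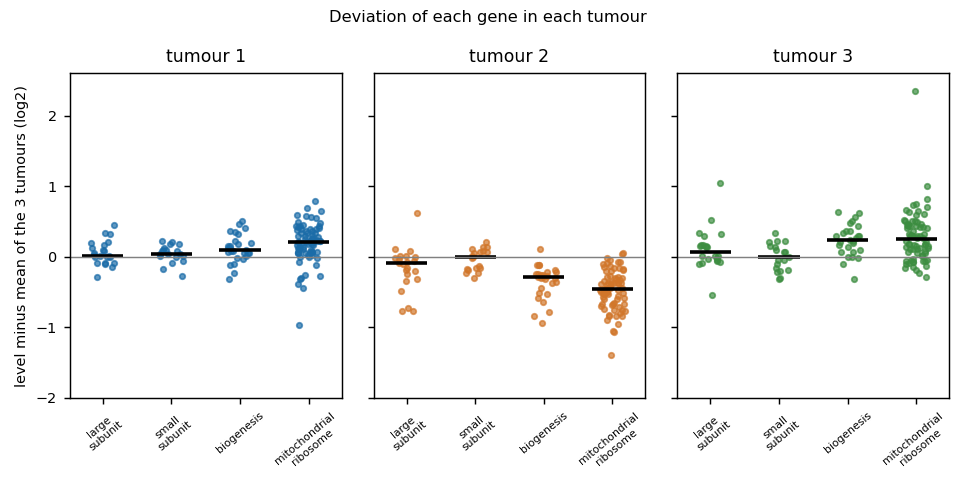
Level of each gene minus its mean over the tumours (log2), 1 panel per tumour, with genes of the large and small subunits, ribosome biogenesis and the mitochondrial ribosome as points and their medians as bars. In tumour 2 the bar lies at -0.46 for the mitochondrial ribosome and -0.29 for biogenesis, and at -0.09 and -0.01 for the large and small subunits.

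The large and small subunits differed little in their deviations. In tumour 2 the median deviation was -0.09 for the large subunit and -0.01 for the small one, and in tumour 3 it was 0.07 and -0.01. Tumour 2 was lowest for 13 of 22 large-subunit genes and for 7 of 19 small-subunit genes, and for 27.1% of all genes. These gaps are below 0.1 (log2). Once probe sets naming several genes were added, the large minus small difference was -0.0079 in tumour 2 and -0.0070 in tumour 3.

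Companion lists of the protein synthesis machinery had wider median ranges than the cytosolic ribosomal proteins, which no test compared. The 74 genes for mitochondrial ribosomal proteins past the filter had a median range of 0.89. In 69 of them (93.2%) tumour 2 had the lowest level, against 27.1% of all genes. A 2-fold difference was reached by 29 (39.2%), against 24.8% of all genes. The widest of them, Mrps35, read highest in tumour 3 with a 13.4-fold range, and the narrowest, Mrpl39, had a 1.11-fold range. The 27 genes of ribosome biogenesis, which process ribosomal RNA and assemble subunits, had a median range of 0.62. Tumour 2 had the lowest level in 26 of them (96.3%), and 5 (18.5%) reached a 2-fold difference. Nhp2, of the particles that modify ribosomal RNA, was at 11.16, 9.90 and 11.46, and Rrp9 had a 1.14-fold range. Of 18 translation factor genes 5 (27.8%) were lowest in tumour 2 and 11 (61.1%) highest there, against 27.1% and 39.1% of all genes. Their median range was 0.41, and 0 genes were at least 2-fold apart. Btf3 had the widest range among them (1.92-fold) and Eef1a1 the narrowest (1.07-fold). Fau, which encodes a ubiquitin-like protein fused to a small-subunit protein, read 6784, 5935 and 5618. Proteasome subunits, another large complex, had a median range of 0.55 over 38 genes, from Psmb1 (1.06-fold) to the interferon-induced Psmb8 (6.23-fold). These lists differ in brightness: their median levels were 9.26 (mitochondrial ribosome), 9.50 (biogenesis), 10.70 (proteasome) and 11.97 (translation factors), all below the 12.69 of the members.

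**Figure D3:**
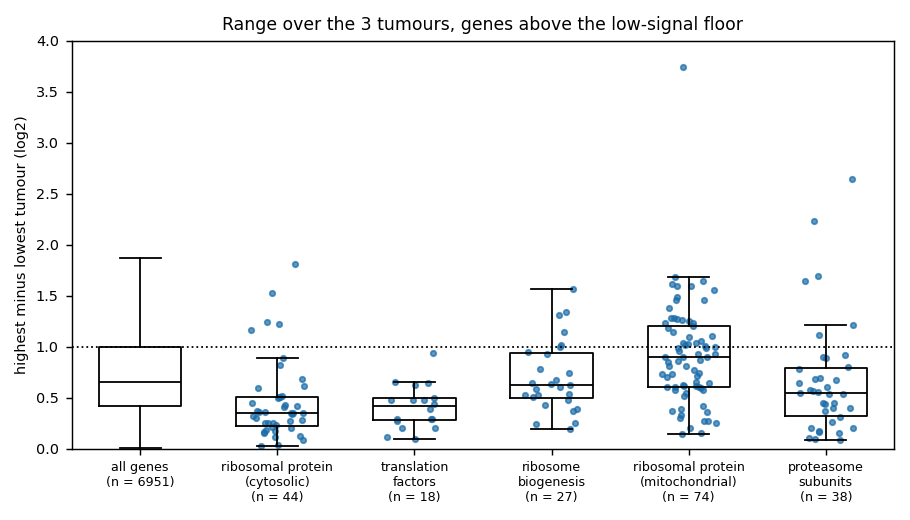
Highest minus lowest tumour (log2) for genes past the low-signal filter in 6 lists; boxes show the quartiles and median, points single genes (none drawn for all genes), and the dotted line 2-fold. The axis ends at 4, above every listed gene. Cytosolic ribosomal protein genes have the lowest median, 0.35, and mitochondrial ones the highest, 0.89.

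Dim probe sets of the members deviated further between tumours than bright ones, with ranges near those of other dim sets. Of the 100 probe sets 81 were above the filter, and at their median level (12.53) they were divided into 40 dimmer and 41 brighter sets, a division made after the values were seen. Among the 40 dimmer sets, 30 had their lowest level in tumour 2 and 21 their highest in tumour 3. A 2-fold difference was reached by 12 of them (30.0%), and their median range was 0.69. Their median deviations were 0.08, -0.29 and 0.19 in tumours 1, 2 and 3. The 9880 other probe sets of 1 gene in the same span of levels (7.52 to 12.53) had deviations of 0.01, 0.01 and -0.01. Those sets were not matched to the member sets for level inside that span, so brightness can differ between them. Of those other sets 31.8% had their lowest level in tumour 2, 36.4% their highest in tumour 3, and a 2-fold difference was reached by 27.1%. Their median range was 0.68. Among the 41 brighter sets, 20 had their lowest level in tumour 2 and 0 reached a 2-fold difference, and their deviations were 0.03, -0.07 and 0.01. Only 25 other sets were in that span of levels, of which 3 had their lowest level in tumour 2 and 1 reached a 2-fold difference, with deviations of 0.04, 0.16 and -0.14. Over the 81 sets Pearson's r of level and range was -0.46 and Spearman's rho -0.60, a description of sets that share arrays and often genes.

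**Figure D4:**
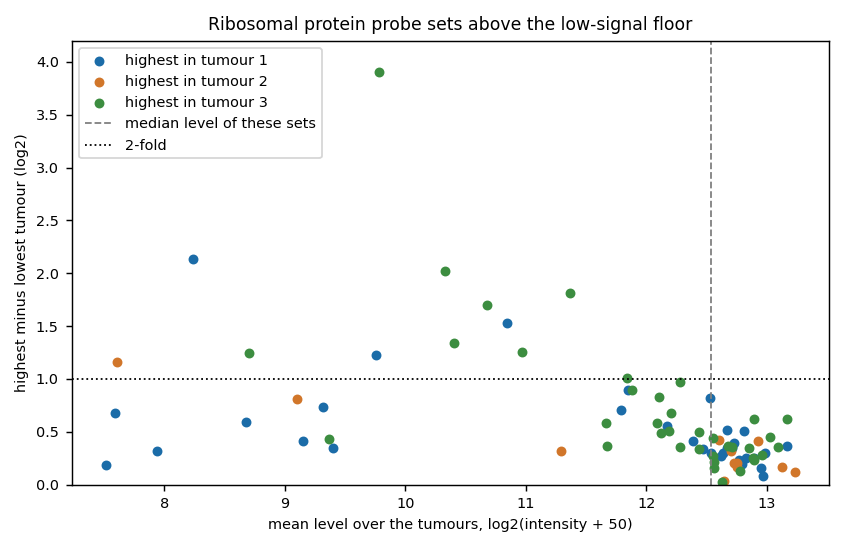
Range over the tumours (log2) against mean level for the 81 ribosomal protein probe sets above the filter, coloured by the tumour in which each is highest. The 12 sets above the 2-fold line all lie left of the median level (dashed), and 8 of them are highest in tumour 3.

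Probe sets of the same gene often disagreed. Of 18 genes with several probe sets above the filter, 4 had the same highest and the same lowest tumour in all of them, and 6 held both a set that differed at least 2-fold and one that did not. Those 6 genes were Rpl13a, Rpl22, Rpl27, Rpl37a, Rps10 and Rps24. In 30 of 37 comparisons the dimmer set had a wider range than the brightest set of its gene. In 26 of 37 the dimmer set stood higher in tumour 3 relative to the other tumours. The brightest set of a gene served in all of its comparisons. These counts were not made for other genes, so they are not shown to be particular to the members. Over all probe sets of 1 gene above the filter 26.8% differed at least 2-fold, against 14.8% of those of the members.

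Rps10 was the widest case. A set with an x suffix read 415, 270 and 4881 in tumours 1, 2 and 3, a range of 3.91 (log2), while the 4 other sets above the filter had ranges between 0.23 and 0.59. The brightest of those read 7006, 6243 and 8691. Tumour 3 was highest in the x set and in 3 of the 4 others. For Rpl27 the dimmer sets read 1018, 665 and 2927 in one case and 1437, 903 and 3169 in the other, ranges of 4.07-fold and 3.24-fold with tumour 3 highest, whereas the brightest set had tumour 1 highest. For Rps24, sets reading 1544, 1382 and 3593 and 3498, 2499 and 5589 had tumour 3 highest, and the brightest read 6426, 4849 and 6535. The dimmest set of Rpl37a read 518, 87 and 298, a 4.38-fold range with tumour 2 lowest, and the dimmest of Rpl13a 1288, 811 and 2202. The higher readings of dim sets in tumour 3 lay beside the different ribosomal RNA controls of that array (400 for the middle part, against 9856 and 9311) and the adipocyte markers named above, and the part of either in these differences was not tested.

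**Figure D5:**
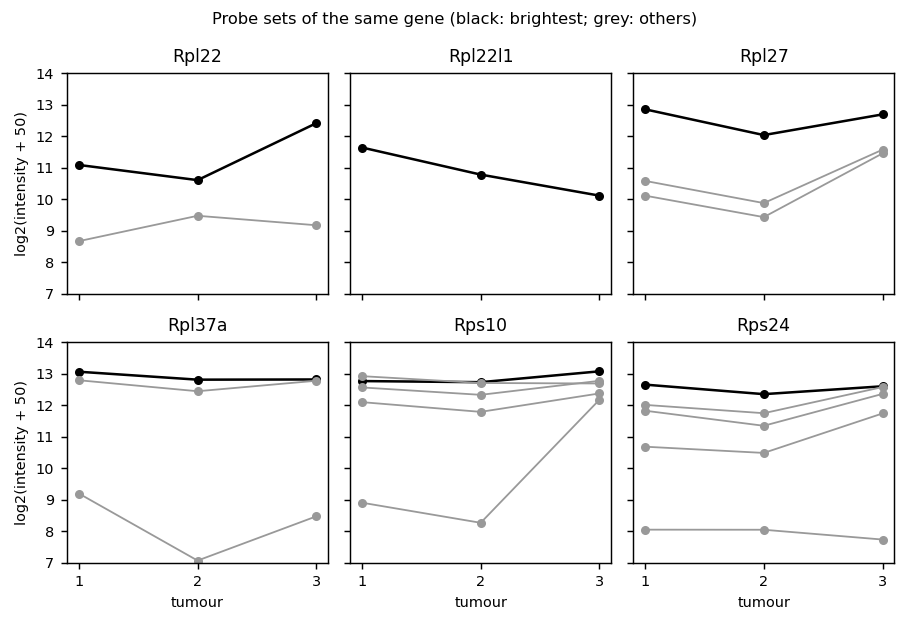
Level, log2(intensity + 50), of every probe set above the filter in each tumour for 6 genes, with the brightest set in black and the others in grey. Some dimmer sets of Rpl27, Rps10 and Rps24 stand further above the other tumours in tumour 3 than the brightest set does, and in tumour 3 the brightest set is highest for Rpl22 and lowest for Rpl22l1.

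Most members rest on probe sets that may bind more than 1 transcript. The brightest set carried a letter suffix in 31 of the 48 genes, which on this kind of array marks probes shared between transcripts or genes, and did not in 17. Of the 100 sets, 40 had the suffix x, 28 a, 2 s and 30 none. The sets without a suffix were dim, with a median level of 7.45 against 12.48 for x and 12.71 for a, and 15 of the 30 were below the filter. Above the filter the median range was 0.43 without a suffix, 0.37 for x and 0.35 for a.

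The probe sets that name several genes covered 30 ribosomal protein symbols that no member set names alone, and 86 of the 102 were above the filter. Their median range was 0.44, and 16 of the 86 (18.6%) differed at least 2-fold, where 26.8% of all probe sets of 1 gene did. Tumour 2 had the lowest level in 42 (48.8%, against 31.8%) and tumour 3 the highest in 42 (48.8%, against 36.4%), with median deviations of 0.01, -0.11 and 0.09. The widest of them, naming Rps21, read 888, 573 and 2592, a 4.14-fold range. Sets naming Rpl36 read 5449, 3143 and 7598 in one case and 1362, 639 and 1671 in another, both lowest in tumour 2. Several sets naming Rps6, such as one at 532, 696 and 1454, were highest in tumour 3, whereas the brightest, given above, was lowest there.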

How the data were processed

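The members and gene lists were chosen with earlier results of these data known. RNAzol was used to extract total RNA, and biotin-labelled cRNA was made from it, per the labels' protocols. The deposited values were 1 linear intensity per probe set and tumour, as whole numbers. The scale was inferred from the values, and scaling, background treatment and probe summary by the authors are not given in the sources used here. Of 22690 probe sets 64 controls were left out. Genes came from the platform annotation (20380 probe sets with 1 gene, 691 with several, 1555 unnamed), and 48 of 48 members matched RefSeq gene IDs (GRCm38.p6) with the same symbol. Arrays were quantile normalized, 50 was added, and log2 taken. A gene took its brightest probe set, and the filter was the median of all probe sets. Tumours were numbered in accession order. Named genes were the 8 widest and 6 narrowest ranges, the 5 highest and 5 lowest means past the filter, members below it, paralogues and parents, 10 listed genes, genes with discordant probe sets, and the widest and narrowest of each companion list; other members and shared sets were added as examples after their values were seen. Alternatives were the scaling, offset, filter, probe set choice, saturation, paralogues and each tumour left out. The calculation was tested on simulated data. Python 3.11.15, numpy 2.4.6, pandas 2.3.3 and matplotlib 3.10.9 were used. The number of arrays limits the precision.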

Additional observations from a re-analysis of the deposited data

How the results depend on the processing

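No paired analysis was possible because all tumours form 1 group. The members' median deviation in tumour 2 was below 0 in every alternative that holds that tumour. The median range was 0.34 to 0.43 with all tumours and 0.19 to 0.24 between the remaining 2 with each tumour left out. The cause of the differences below was not tested. With array medians subtracted the deviation was -0.19 in tumour 2 and 0.095 in tumour 3, with 2 members highest in tumour 2, 3 lowest in tumour 1 and 8 lowest in tumour 3. With the values as deposited 3 were lowest in tumour 1. The large minus small subunit difference in tumour 1 (-0.03) was 0.0092 under both scalings. With the 75th percentile filter 3 of 40 members differed at least 2-fold.

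With suffixed probe sets left out 14 genes remained past the filter, with a median range of 0.42, and 3 differed at least 2-fold. In the main setting 24.8% of all genes differed at least 2-fold. Shares of all genes were not computed for this setting or for the 75th percentile filter, so these counts have no background beside them. Of these 14, 6, 2 and 6 were highest and 3, 7 and 4 lowest in tumours 1, 2 and 3. The deviation in tumour 3 was 0.10, and the large minus small subunit difference was -0.24 in tumour 2 and 0.24 in tumour 3. Of the 33 members left past the filter without the near-saturated genes, 10 had their highest level in tumour 3 and 4 their lowest in tumour 1. With probe sets of several genes added, an alternative chosen after seeing the data, 75 genes were past the filter in place of 44. Of these 75, 30 were highest and 15 lowest in tumour 1, 39 lowest in tumour 2 and 32 highest in tumour 3. The main counts were 18, 8, 22 and 17 of 44. The subunit difference was -0.0079 in tumour 2 (-0.09 without those sets) and -0.0070 in tumour 3 (0.08 without those sets).

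With each tumour left out in turn, 1 to 4 members differed at least 2-fold. Between 25 and 28 were highest in tumour 1, 15 to 16 in tumour 2 and 17 to 29 in tumour 3. Between 16 and 17 were lowest in tumour 1 and 15 to 25 in tumour 3. With 2 tumours left, these counts of 43 or 44 genes are not comparable with those over 3 tumours. With all 3 normalized together, tumour 1 stood above tumour 2 in 29 of 44 members and 3179 of all 6951 genes. Tumour 1 stood above tumour 3 in 25 and 3884, and tumour 3 above tumour 2 in 29 and 2922. The deviation in tumour 3 was -0.029 without tumour 2 and 0.054 without tumour 1. The subunit difference in tumour 1 was -0.040 without tumour 2 and 0.088 without tumour 3. Depth is not defined for these arrays, and values near the highest intensity or near the filter limit what can be read.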
